A study of Mus musculus with 9 samples.

Results

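The calsyntenins are a family of 3 genes, Clstn1, Clstn2 and Clstn3, of the 52459 genes with values in RNAseq of sorted LepR+ skeletal stem and progenitor cells of the mouse. All 3 were taken by name, and Clstn2 was singled out because it was nearly absent from every library from middle-aged mice and was counted in every library from young mice. These values therefore chose the gene, and the Clstn2 levels are given as a description with no test. The 9 libraries came from LepR+ cells that were sorted by flow cytometry, outside the blood lineages, from tibiae and femurs of C57B6 mice after collagenase digestion. Of these, 3 were from middle-aged mice (52 weeks) given sodium salicylate, an anti-inflammatory drug, 3 from middle-aged mice (52 weeks) without treatment, and 3 from young mice (12 weeks) without treatment. Dose and duration of the drug and the animals behind each library were not given in the sources used here, so that each p-value rests on the spread among these libraries alone, which may be technical.

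Calsyntenins are membrane proteins that cross the membrane once and carry cadherin repeats on the outside. They were described mainly in neurons, where the cytoplasmic tail of calsyntenin-1 binds the light chains of the motor kinesin-1 and so ties vesicles to microtubule transport, including vesicles with the amyloid precursor protein APP. Calsyntenins also bind the adaptor Mint2, are cut by an alpha-secretase and then by the gamma-secretase complex, and act as adhesion proteins at synapses, where calsyntenin-3 and neurexins are partners. LepR+ cells are the leptin receptor positive stromal cells of the marrow, which support blood stem cells and give rise to bone and fat.

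By GENCODE release M21 (build GRCm38), Clstn1 (ENSMUSG00000039953.13) is a plus-strand gene at chr4:149586468-149648899. Clstn2 (ENSMUSG00000032452.12) is a minus-strand gene at chr9:97444395-98033181, as is Clstn3 (ENSMUSG00000008153.11) at chr6:124430759-124464794. The longest transcript has 18 exons in each of the 3 genes and is 4459 bp long for Clstn1, 4365 bp for Clstn2 and 4014 bp for Clstn3. The span on the genome differs far more, 588787 bp for Clstn2, 62432 bp for Clstn1 and 34036 bp for Clstn3.

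The bases just before the start of each gene are shown because the members stood at widely different levels, as given below. The letters are from RefSeq (GRCm38.p6), run 5′ to 3′ on the strand of the gene and stop before the first exon in both annotations, and capitals mark TGACGTCA, the palindromic cAMP response element.
Clstn1, chr4:149586218-149586467, plus strand: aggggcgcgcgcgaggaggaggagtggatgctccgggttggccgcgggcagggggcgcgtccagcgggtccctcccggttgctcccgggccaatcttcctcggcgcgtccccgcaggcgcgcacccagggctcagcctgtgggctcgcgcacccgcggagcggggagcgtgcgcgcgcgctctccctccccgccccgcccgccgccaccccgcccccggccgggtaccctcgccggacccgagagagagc
Clstn2, chr9:98033182-98033417, minus strand: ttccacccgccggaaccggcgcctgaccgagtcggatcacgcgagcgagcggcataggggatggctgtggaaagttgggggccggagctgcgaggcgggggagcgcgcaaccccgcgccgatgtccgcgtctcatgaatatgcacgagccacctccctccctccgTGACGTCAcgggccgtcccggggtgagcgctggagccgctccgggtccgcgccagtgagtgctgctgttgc
Clstn3, chr6:124464795-124465034, minus strand: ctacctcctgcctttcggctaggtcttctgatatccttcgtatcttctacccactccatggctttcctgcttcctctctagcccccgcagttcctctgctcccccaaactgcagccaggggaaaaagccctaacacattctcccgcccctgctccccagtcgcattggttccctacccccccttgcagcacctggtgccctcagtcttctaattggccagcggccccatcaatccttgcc

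The stretches before Clstn1 and Clstn2 were rich in CpG, with 38 and 31 CpG and a GC content of 80% and 70.8%. The stretch before Clstn3 had 6 CpG and a GC content of 58.3%, and a second RefSeq start of Clstn3 had 4 CpG. For all 32817 promoter windows of 250 bases the medians were 6 CpG and 52.4% GC. TGACGTCA was found once, 71 bases before the start of Clstn2 (first base of the match), and not in the other stretches. It reads the same on both strands, was searched for after the letters had been seen, and was held by 1.55% of all windows. A match of letters is a description and not a binding site.

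Libraries held 9902613 to 20746804 reads, and a level is given below as the normalized count, the reads divided by the size factor of the library, without division by gene length. LepR+ stroma markers, Lepr among them, were all detected in every group. Summed over 16 genes they ranged from 493417 to 631804 normalized counts in salicylate-treated middle-aged mice, from 121065 to 472398 in middle-aged mice and from 700673 to 868407 in young mice. Antibody genes, which mark B and plasma cells, took 1.53% to 8.33% of the reads in salicylate-treated middle-aged mice, 3.25% to 32.6% in middle-aged mice and 0.107% to 0.479% in young mice. Middle-aged replicate 3 stood apart, with the lowest size factor (0.364), the lowest stroma sum and the highest antibody share.

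Clstn2 was almost gone from middle-aged LepR+ cells and was present at a low level after salicylate. Its normalized counts were 7.10, 10.05 and 12.32 in salicylate-treated middle-aged mice, 0.86, 1.11 and 0 in middle-aged mice, and 109.22, 110.09 and 150.43 in young mice. Every young library was above every salicylate-treated library, and every salicylate-treated library was above every middle-aged one. In reads this was 11, 13 and 12 in salicylate-treated middle-aged mice, 1, 1 and 0 in middle-aged mice, and 123, 184 and 134 in young mice. Because whole sorted populations were sequenced, fewer cells with Clstn2 and less Clstn2 RNA per cell cannot be told apart.

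**Figure D1:**
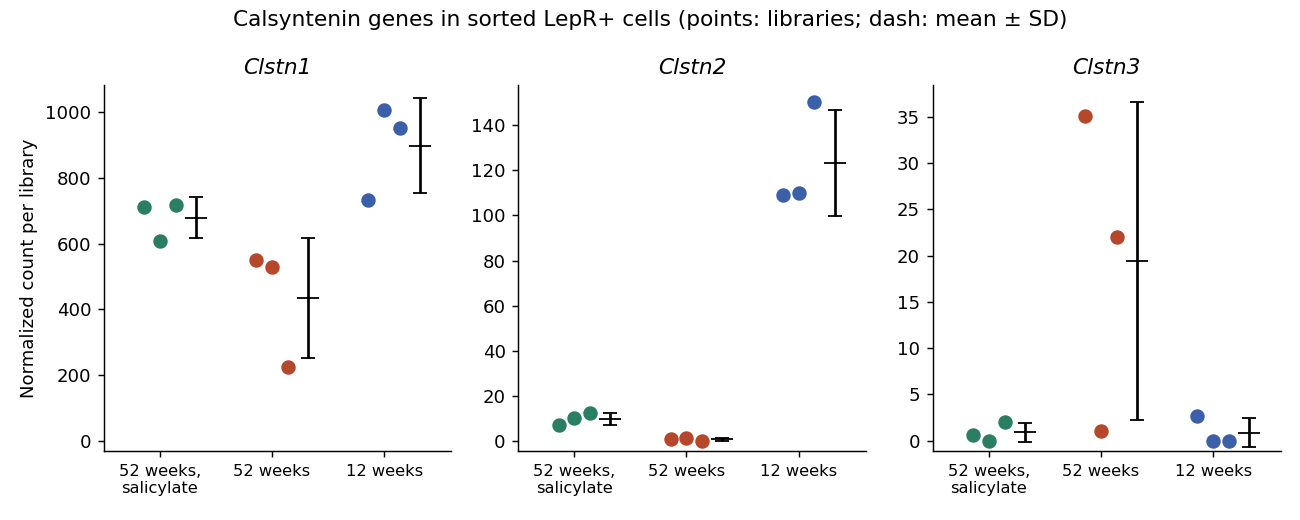
Normalized counts (y axis, linear, a scale for each gene) of Clstn1, Clstn2 and Clstn3 in salicylate-treated middle-aged, middle-aged and young mice. Points are the 3 libraries of a group and the dash with bars is their mean ± SD. Clstn2 libraries sit at 7.10 to 12.32 with salicylate and at 1.11 or less without it at 52 weeks, and between 109.22 and 150.43 at 12 weeks.

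The mean Clstn2 level was 9.82 ± 2.62 in salicylate-treated middle-aged mice, 0.657 ± 0.582 in middle-aged mice and 123 ± 23.5 in young mice (SD, n = 3 each). With reads pooled over libraries and corrected for size factors, middle-aged mice had 0.688% of the young level (exact 95% interval 0.0831% to 2.50%). Salicylate-treated middle-aged mice had 7.89% of the young level (5.45% to 11.1%). They exceeded middle-aged mice 11.5-fold, with an interval of 2.95 to 98.2 that is wide because only 2 reads stood on the middle-aged side. These intervals leave out the spread among libraries. They are too narrow even for counting error, since reads of PCR libraries are not independent molecules. As the middle-aged and young values chose the gene, the intervals are a description and no test. On the scale of log2(normalized count + 1), the difference was -6.28 for middle-aged minus young, -3.53 for salicylate-treated middle-aged minus young and 2.75 for salicylate-treated minus untreated middle-aged. The level after salicylate lay 43.8% of the way from middle-aged to young on this log2 scale and 7.48% of the way on the linear scale.

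Groups that lay apart were not rare in these data. All middle-aged libraries were below all young ones for 15.1% of the 14998 genes whose mean reached 10 normalized counts, and all salicylate-treated ones were below all young ones for 9.9% and above them for 8.99%. All salicylate-treated libraries were above all middle-aged ones for 8.19% of genes and below them for 5.9%. The full order of Clstn2, middle-aged below salicylate-treated below young with no overlap, was shared by 226 genes (1.51%). Nothing is read from these shares for Clstn2, since its middle-aged and young values chose it. They show how common the order was.

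The size of the difference at this level was rare. Of the 52459 genes it was the single one with at most 1.11 normalized counts in every middle-aged library and at least 109.22 in every young library. This count restates the choice of the gene and is no test. With looser limits, at most 5 in every middle-aged and at least 50 in every young library, 2 of the 9149 genes at that young level qualified, Clstn2 and Slc13a5, which encodes a citrate transporter. Slc13a5, which was named after its values were seen, had 0, 3.09 and 0 normalized counts in salicylate-treated middle-aged mice, 3.43, 0 and 0 in middle-aged mice, and 67.49, 88.55 and 55.01 in young mice. The salicylate-treated libraries of Slc13a5 overlapped the middle-aged ones, whereas those of Clstn2 did not.

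Depth bears on how firmly the loss can be read in each library. The middle-aged libraries held 1, 1 and 0 Clstn2 reads, where the mean young level would have given 144, 111 and 44.8. The middle-aged libraries also had less Lepr, the gene of the sort, with 67121 ± 8237 normalized counts in salicylate-treated middle-aged mice, 38386 ± 21957 in middle-aged mice and 90045 ± 12104 in young mice (SD, n = 3 each). At the mean young ratio of Clstn2 to Lepr, the expected reads were 139, 106 and 101 in salicylate-treated middle-aged mice and 92.0, 53.0 and 7.19 in middle-aged mice. Every middle-aged library thus counted fewer Clstn2 reads than expected by either measure. The middle-aged and young values chose the gene, so this comparison is a description and no test. Middle-aged replicate 3 had the least depth, and the 3 reads that a count of 0 allows there correspond to 8.25 normalized counts, below the lowest young value of 109.22. Set against the 7.19 reads expected there from Lepr, however, 3 reads would still be a sizable part.

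**Figure D2:**
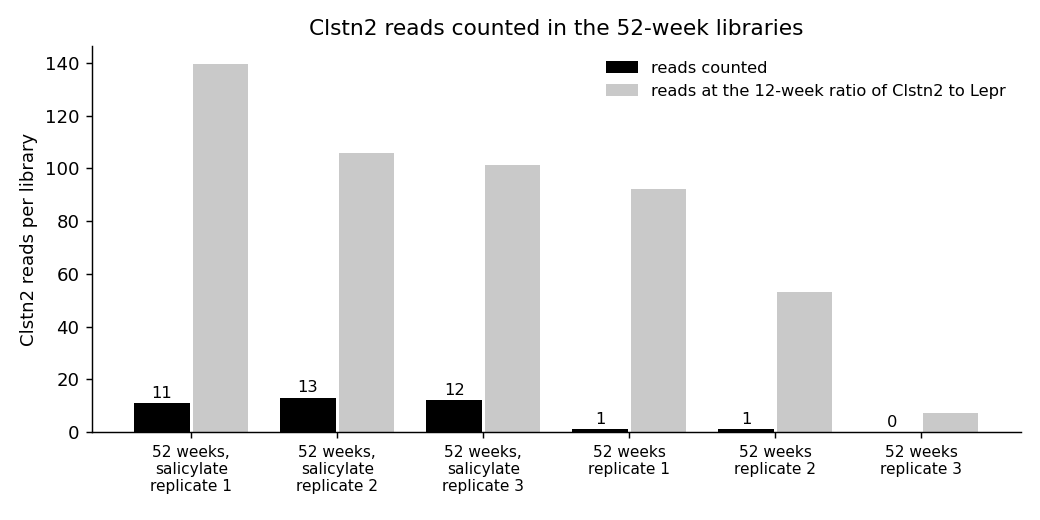
Clstn2 reads (y axis) in each of the 6 libraries from 52-week mice, with and without salicylate. Black bars are the reads counted and gray bars the reads at the mean 12-week ratio of Clstn2 to Lepr. The counts of 11, 13 and 12 after salicylate and of 1, 1 and 0 without it stand below gray bars of 101 to 139 and of 7.19 to 92.0.

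Per 10000 Lepr counts, Clstn2 stood at 1.08, 1.68 and 1.62 in salicylate-treated middle-aged mice, at 0.149, 0.258 and 0 in middle-aged mice, and at 12.2, 14.1 and 14.7 in young mice. The groups stayed apart in the same order, which is a description and no test because the middle-aged and young values chose the gene. The means were 1.46 ± 0.333, 0.136 ± 0.129 and 13.7 ± 1.34 in that order of groups (SD, n = 3 each). When all libraries were scaled by the LepR+ stroma markers instead, the log2 difference was -5.58 for middle-aged minus young, -3.01 for salicylate-treated minus young and 2.58 for salicylate-treated minus untreated middle-aged mice.

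Markers of several other cell types moved along with age, and their part in the Clstn2 levels was not tested. Of the erythroid and of the endothelial markers, 7 were tested in each list. In both, 0 had an unadjusted limma p under 0.05 between middle-aged and young mice. Of all genes tested, 0.873% were called lower and 2.14% higher in middle-aged than in young mice, and 23.4% had an unadjusted limma p under 0.05. Of the 6 chondrocyte markers, Col9a1 and Matn3 reached the minimum mean of 10 only through the young libraries, and 3 of the other 4 were called lower. The sum of all 6 was 334 to 369 normalized counts in salicylate-treated middle-aged mice, 33.0 to 774 in middle-aged mice and 1892 to 15750 in young mice, with Col9a1 at 0 in both middle-aged groups and Matn3 at 2.22 or less. Osteoblast markers had sums of 33924 to 37498 in salicylate-treated middle-aged mice, 7683 to 30370 in middle-aged mice and 61118 to 78659 in young mice. Mural markers had sums of 1379 to 1501, 366 to 1302 and 2686 to 3690 in that order of groups. All 7 osteoblast markers and 5 of 7 tested mural markers had lower values at 52 than at 12 weeks, and 1 of each list passed the test. Pan-leukocyte markers went the other way, with 8 of 8 higher in middle-aged than in young mice by the test and sums of 11855 to 15987, 14953 to 30116 and 4376 to 6737 in the same order. Schwann and neural markers, which mark nerves, had sums of 1195 to 1677, 825 to 1154 and 880 to 1128 in the same order. Of these 10 genes Snap25 and Rbfox3, which mark neurons, had no read in either middle-aged group, Sox10 had none after salicylate and Tubb3 none without it. These genes were near the floor in young mice too, with 23.98, 0 and 0 normalized counts for Snap25 and 1.78, 0 and 0 for Rbfox3. Sox10 had 1.78, 0 and 0 in young mice and Tubb3 had 0, 0 and 2.25. Of the 4 tested members 2 were higher, among them Ncam1, and 2 lower, among them S100b, in middle-aged than in young mice. An unadjusted limma p under 0.05 was found for 2 of the 4, and 0 were called.

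The genes next to Clstn2 were at other levels. Trim42, 74437 bp away, had no read in any library. Nmnat3, which encodes an enzyme of NAD synthesis and lies 254254 bp beyond the start of Clstn2, had 38.72, 47.14 and 29.78 normalized counts in salicylate-treated middle-aged mice, 71.1, 76.75 and 104.53 in middle-aged mice, and 15.1, 54.45 and 40.42 in young mice. Its log2 difference between middle-aged and young mice was 1.33 and did not pass the test (limma, adjusted p = 0.202). An annotated antisense gene inside Clstn2, 4921534H16Rik, had 30, 17 and 14 reads in all in salicylate-treated middle-aged, middle-aged and young mice. All 30 came from salicylate-treated replicate 1 and all 17 from middle-aged replicate 2. Gm37661, annotated inside Clstn2 on the strand of Clstn2, had 9 reads, all in salicylate-treated replicate 1. As strandedness was not given in the sources used here, reads of Clstn2 and of 4921534H16Rik cannot be told apart where they overlap.

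Clstn1 was the abundant calsyntenin of these cells. Its normalized counts were 712.4, 608.16 and 717.89 in salicylate-treated middle-aged mice, 549.94, 530.6 and 225.56 in middle-aged mice, and 734.37, 1007.54 and 953.12 in young mice. The groups did not overlap and had the same full order as for Clstn2, an order shared by 1.51% of the 14998 genes tested. All middle-aged libraries were below all young ones for 15.1% of these genes. The lowest value of Clstn1 was in middle-aged replicate 3. The means were 679 ± 61.8 in salicylate-treated middle-aged mice, 435 ± 182 in middle-aged mice and 898 ± 145 in young mice (SD, n = 3 each).

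The log2 difference of Clstn1 was -1.14 for middle-aged minus young mice (SE 0.33, 95% interval -1.87 to -0.40) and did not pass the test over all genes (limma, adjusted p = 0.0891). With DESeq2 on the recovered reads the difference was -1.02 and passed (adjusted p = 0.0368), and without middle-aged replicate 1 it was -1.36 and passed with limma (adjusted p = 0.0331). Over all 24 alternatives the adjusted p ran from 0.0331 to 0.583. For salicylate-treated middle-aged minus young mice the log2 difference was -0.39 (interval -1.13 to 0.34, limma, adjusted p = 1), where 0.207% of genes were called higher and 0% lower. For salicylate-treated minus untreated middle-aged mice it was 0.75 (SE 0.33, interval 0.01 to 1.48, limma, adjusted p = 0.496). In that comparison limma called 0% of genes in either direction, 1464 genes had an unadjusted p under 0.05, edgeR called 0 genes and DESeq2 called 44.

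The direction of Clstn1 depended on what it was measured against. Per 10000 Lepr counts it stood at 108, 102 and 94.5 in salicylate-treated middle-aged mice, 95.5, 123 and 156 in middle-aged mice, and 81.7, 129 and 93.2 in young mice, and all 3 groups overlapped. After scaling by the LepR+ stroma markers, the log2 difference was 0.27 for middle-aged minus young, 0.13 for salicylate-treated minus young and -0.13 for salicylate-treated minus untreated middle-aged mice, the opposite sign in each. This scaling moved the median of all genes to 1.33, 0.51 and -0.80 in these comparisons, against -0.08, -0.01 and 0.09 with the size factors of the authors, so that Clstn1 then lay below the median of all genes for middle-aged minus young mice. Relative to Lepr, the groups thus overlapped for Clstn1. Those of Clstn2 did not overlap, but its middle-aged and young values chose it, so nothing is read from the contrast with Clstn1.

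**Figure D3:**
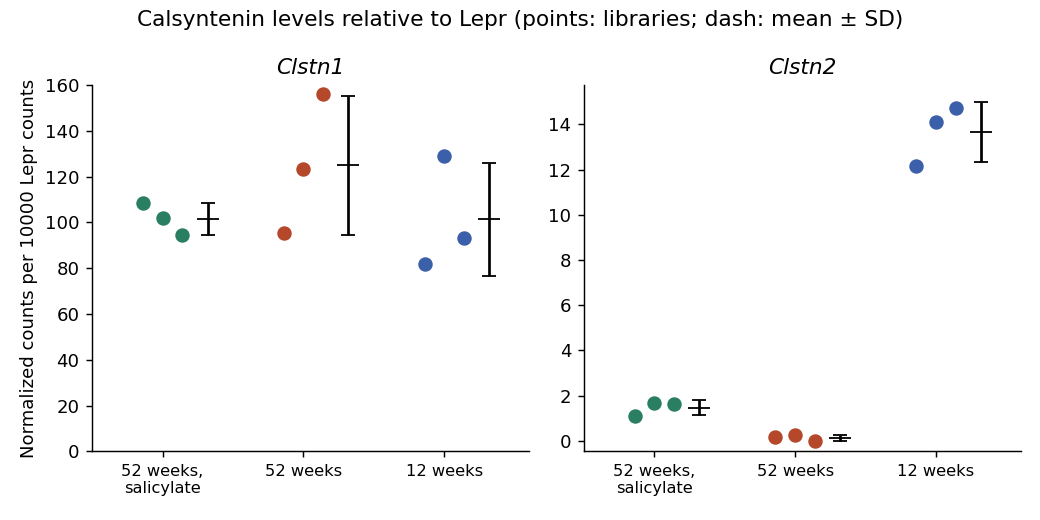
Normalized counts of Clstn1 and Clstn2 per 10000 normalized counts of Lepr (y axes, linear, a scale for each gene) in the 3 groups. Points are libraries and the dash with bars is the mean ± SD of 3. Clstn1 libraries of the 3 groups overlap between 81.7 and 156, and the Clstn2 libraries at 52 weeks, 0 to 1.68, lie below those at 12 weeks, 12.2 to 14.7.

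Clstn3 was close to the limit of detection except in the middle-aged group. Its normalized counts were 0.65, 0 and 2.05 in salicylate-treated middle-aged mice, 35.12, 1.11 and 22.01 in middle-aged mice, and 2.66, 0 and 0 in young mice. Only middle-aged replicates 1 and 3 stood above the rest, replicate 2 lay among the values of the other groups, and the groups overlapped. In all, 3, 50 and 3 reads were counted in salicylate-treated middle-aged, middle-aged and young mice, and 41 of the 50 came from middle-aged replicate 1.

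With a mean of 7.07 normalized counts, Clstn3 did not reach the minimum of 10 set for the test, which Clstn1 passed in every group and Clstn2 only through the young libraries. Without that minimum, the log2 difference was 2.97 for middle-aged minus young mice (limma, adjusted p = 0.277) and -2.81 for salicylate-treated minus untreated middle-aged mice (adjusted p = 0.648). For salicylate-treated middle-aged minus young mice it was 0.15 (adjusted p = 1). Over genes with at least 10 reads in all, edgeR gave an adjusted p of 0.293 and DESeq2 one of 0.118 for middle-aged against young mice, and the alternatives with a test ran from 0.118 to 0.354. A difference of Clstn3 was thus not shown at this depth. The libraries with Clstn3 also carried antibody reads, 3.25% in middle-aged replicate 1 and 32.6% in replicate 3, but middle-aged replicate 2, with 1 read of Clstn3, had 16.5%, and the part of other cells in the Clstn3 reads was not tested.

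The order of the family within the libraries was read per length of the longest transcript. Clstn1 exceeded Clstn3 in 9 of 9 libraries, with a mean log2 ratio of 7.47 (SD 2.43, exact permutation by two-sided sign flips, p = 0.00391, which is the lowest value possible with 9 libraries). In size this ratio depends on the 1 added to each normalized count, since Clstn3 had few reads or none. Per kb, Clstn1 averaged 152 ± 13.9 normalized counts in salicylate-treated middle-aged mice, 97.6 ± 40.8 in middle-aged mice and 201 ± 32.4 in young mice (SD, n = 3 each). Clstn2 averaged 2.25 ± 0.600, 0.150 ± 0.133 and 28.2 ± 5.39 per kb in that order of groups (SD, n = 3 each), the middle-aged value from 2 reads in all, so that no fold is given for that group. Clstn1 stood above Clstn2 by a mean log2 ratio of 5.97 in salicylate-treated middle-aged mice and 2.83 in young mice, that is 62.6-fold and 7.10-fold. Clstn3 averaged 0.224 ± 0.261, 4.84 ± 4.27 and 0.221 ± 0.383 per kb in that order of groups (SD, n = 3 each), so that Clstn2 was the second calsyntenin of young cells. In middle-aged mice Clstn2 and Clstn3 both rested on few reads, and their order there does not hold beyond counting error in replicate 2 (1 read each).

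The genes whose levels ran most like Clstn2 over the 9 libraries were sought among 10719 genes whose mean reached 50 normalized counts, by Pearson's r of log2(normalized count + 1). The first 10 were Dkk3, H6pd, Atp6v1c2, Chd6, Gria3, Tmem19, Thbd, Cdh2, Adcy9 and Zdhhc8, with r from 0.953 to 0.974. Points shared their library and depth, and the genes were chosen by this measure, so no test is given. All 10 had middle-aged below salicylate-treated below young libraries with no overlap, which the choice favours. Their falls were shallower than that of Clstn2, with a middle-aged mean of 17.1% to 65.7% of the young mean. The choice of Clstn2 for its near absence in middle-aged mice favours this contrast, so nothing is read from it. Dkk3, a secreted relative of the Dickkopf inhibitors of Wnt signaling, had the highest r, with 433 ± 36.4 normalized counts in salicylate-treated middle-aged mice, 336 ± 39.2 in middle-aged mice and 612 ± 74.7 in young mice (SD, n = 3 each). Gria3, a subunit of glutamate receptors, averaged 188 ± 32.6 in salicylate-treated middle-aged mice, 110 ± 37.2 in middle-aged mice and 357 ± 22.0 in young mice (SD, n = 3 each). Thbd, which encodes the anticoagulant receptor thrombomodulin, averaged 2575 ± 154 in salicylate-treated middle-aged mice, 1864 ± 354 in middle-aged mice and 3477 ± 129 in young mice (SD, n = 3 each). Clstn1 had an r of 0.820 with Clstn2 and ranked 386, and Lepr had an r of 0.791.

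**Figure D4:**
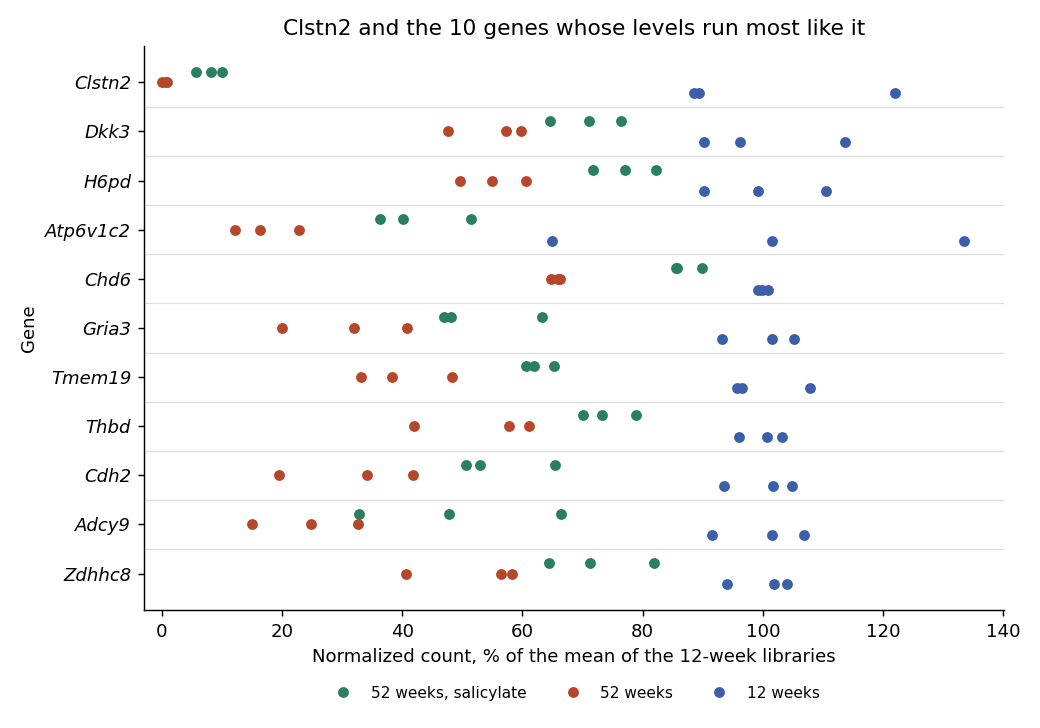
Clstn2 and the 10 genes with the highest Pearson's r with it, as normalized counts in percent of the mean of the 12-week libraries (x axis, linear). Each point is a library, with salicylate-treated 52-week libraries above untreated 52-week and 12-week libraries in each row. Middle-aged means of the 10 genes lie at 17.1% to 65.7% of the young mean, against points near 0 for Clstn2, which was chosen for its near absence there.

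The known partners of calsyntenins were described by lists of genes, read against the share of all genes called between middle-aged and young mice, 0.873% lower and 2.14% higher, against the 23.4% of all genes with an unadjusted limma p under 0.05, and against the median of all genes (-0.08 on the log2 scale). Of the same 14998 genes edgeR called 51 lower and 292 higher, and DESeq2 618 lower and 1037 higher. Of the kinesin-1 genes 4 of 7 were tested, 0 were called by limma, edgeR or DESeq2, 0 had an unadjusted limma p under 0.05, and the median log2 difference was -0.52 with limma, the opposite sign of that with edgeR (0.31) and DESeq2 (0.32). Kif5b, the motor chain of most cells, had 1681 ± 326 normalized counts in salicylate-treated middle-aged mice, 1999 ± 461 in middle-aged mice and 1470 ± 130 in young mice, and the light chain Klc1 had 164 ± 29.3, 145 ± 32.4 and 174 ± 37.9 in that order of groups (SD, n = 3 each). Of the APP family and its Mint and Fe65 adaptors all 9 in the table were tested, 0 were called by limma and edgeR and 1 by DESeq2, 4 had an unadjusted limma p under 0.05, and the median was -0.42. App itself had 6235 ± 601, 3419 ± 1817 and 7607 ± 638 normalized counts in the same order (SD, n = 3 each), a log2 difference of -1.35 between middle-aged and young mice that did not pass the test (limma, adjusted p = 0.0927). Of the alpha- and gamma-secretase genes and their relatives, 11 of 11 were tested, 0 were called by limma, edgeR or DESeq2 and 2 had an unadjusted limma p under 0.05, with a median of -0.21. Adam10, an alpha-secretase, had 886 ± 195 in salicylate-treated middle-aged mice, 1151 ± 221 in middle-aged mice and 981 ± 95.1 in young mice (SD, n = 3 each).

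Of the neurexins, neuroligins and other synaptic organizers 13 of 23 genes reached the minimum mean, and 1 of them, Cbln2, did so only through the young libraries and so had to differ. Of the other 12, 0 were called by limma, 7 had an unadjusted limma p under 0.05, and the median log2 difference between middle-aged and young mice was -1.45. Of all 13, Cbln2 included, edgeR called 0 and DESeq2 called 2 lower, 1 of them Cbln2 itself. Without middle-aged replicate 1 limma called 6 of 12 lower, again counting Cbln2. Of all 14998 genes, edgeR called 51 lower and DESeq2 618, and limma without middle-aged replicate 1 called 1251 lower. Cbln2, which encodes a secreted bridge between neurexins and their partners, is given as a description with no test. It had no read in any of the 6 libraries from middle-aged mice, treated or not, and 40.85, 23.93 and 52.76 normalized counts in young mice (133 reads). Measured against 3 reads over the group, the young level was at least 45.9-fold higher than in salicylate-treated middle-aged mice and at least 29.2-fold higher than in middle-aged mice.

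Of the cadherins, which share the adhesive repeats of the calsyntenins, 21 of 29 genes were tested, 0 were called higher and 2 lower in middle-aged than in young mice, 10 had an unadjusted limma p under 0.05, and the median log2 difference was -1.36. With edgeR 1 was called lower, and with DESeq2 6 lower and 1 higher. Among all 14998 genes edgeR called 51 lower and 292 higher, and DESeq2 618 and 1037. Without 1 middle-aged library limma called 7 lower (replicate 1), 0 (replicate 2), or 5 lower and 1 higher (replicate 3). Over all genes these fits called 1251 of 14998 lower (replicate 1), 4 of 15035 (replicate 2), and 392 of 14956 lower with 430 higher (replicate 3). Cdh2, the gene of N-cadherin, had 2599, 2712 and 3354 normalized counts in salicylate-treated middle-aged mice, 2142, 1753 and 1001 in middle-aged mice, and 5214, 5378 and 4802 in young mice. Its log2 difference was -1.72 for middle-aged minus young mice (SE 0.28, limma, adjusted p = 0.0178). The call was lost without middle-aged replicate 2 (adjusted p = 0.0640) and without each young library (0.0572 to 0.0800). Pcdh18, a protocadherin, had 632, 617 and 1021 in salicylate-treated middle-aged mice, 684, 376 and 138 in middle-aged mice, and 1223, 1187 and 1877 in young mice. Its log2 difference of -2.08 lay at the threshold (limma, adjusted p = 0.0492) and was lost with edgeR (0.0821) and in 7 of 9 fits without 1 library (0.0658 to 0.175).

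Between salicylate-treated and untreated middle-aged mice 0 members of the 5 lists were called by limma, edgeR or DESeq2. Between salicylate-treated middle-aged and young mice 0 were called by limma and edgeR, and 1 synaptic organizer was lower by DESeq2. Cbln2, with 0 reads in both middle-aged groups, was among the organizers tested and had to differ here too. Of all 14998 genes DESeq2 called 39 lower in this comparison. All 16 LepR+ stroma markers had lower values at 52 than at 12 weeks, with a median log2 difference of -1.40. Of these, 15 had an unadjusted limma p under 0.05 and 0 were called. The part of LepR+ stroma markers in the medians of the lists was not tested. After scaling by these markers, the medians for middle-aged minus young mice were 0.53 for kinesin-1, 0.95 for the APP family, 1.20 for the secretases, -0.13 for the synaptic organizers and 0.07 for the cadherins. All 5 lay below the median of all genes, which this scaling moved to 1.33. Under that scaling Cdh2 and Pcdh18 had log2 differences of -0.31 and -0.68, neither of which passed the test. That of Clstn2 was -5.58, but its middle-aged and young values chose it, so nothing is read from the contrast.

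**Figure D5:**
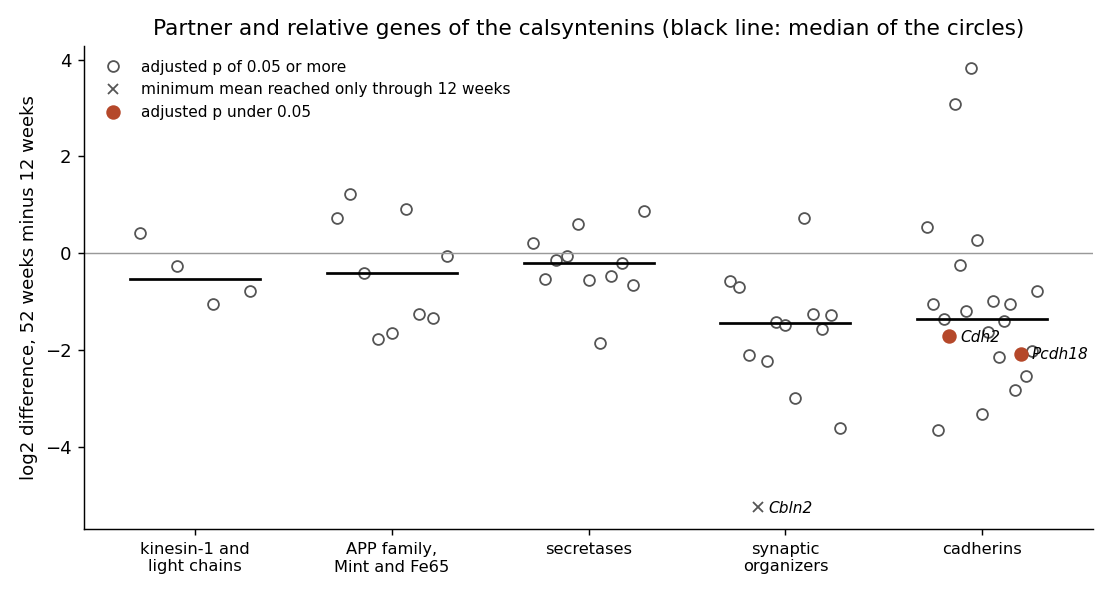
Log2 difference between 52-week and 12-week libraries without salicylate (y axis) for the tested members of the 5 lists of calsyntenin partners and relatives. Each circle is a gene, filled where the adjusted p of limma was under 0.05, the cross is Cbln2, which reached the minimum mean only through the 12-week libraries, and the black line is the median of the circles. Cdh2 and Pcdh18 are the 2 filled circles, both below 0.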

How the data were processed

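The authors sequenced RNAseq libraries of sorted LepR+ cells on an Illumina HiSeq, and used bcl2fastq for conversion, STAR for alignment to mm10 (GRCm38), featureCounts for the count of reads per gene and DESeq2 for normalization. Versions, gene annotation and strandedness were not given in the sources used here. The deposited signal values are the reads divided by 1 size factor per library by the authors, with 2 decimals, no log and no division by length. Reads were recovered from the steps of the values, and 100% were whole within 0.1 in each library. Depth was 9902613 to 20746804 reads per library, and a count of 0 was taken to allow up to 3 reads, which is 1.79 to 8.25 normalized counts depending on the library.

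The main test was limma (version 3.58.1, under R 4.3.3) on log2(normalized count + 1) with its mean trend, for the 14998 genes whose mean reached 10, with all 9 libraries in the fit and Benjamini-Hochberg adjustment over all genes. An adjusted p under 0.05 was a call. Fold changes on this scale understate those of low genes. Because the values were normalized, count tests on recovered reads (edgeR, version 4.0.16, and DESeq2, version 1.42.0) were alternatives. edgeR called 343 genes between middle-aged and young mice, against 452 by limma. Clstn2 was not tested. Ratios between genes were divided by the longest transcript and tested by exact sign flips over libraries. Pooled reads were compared with exact 95% intervals. Gene positions were from GENCODE release M21, where 48007 symbols (91.5%) matched exactly 1 gene, and promoter letters from RefSeq, where all 3 members had an entry.

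The members, gene lists, markers and tests were chosen with earlier results of these data known. Named genes were the calsyntenins, up to 4 called members of each list with the smallest p and members used as background for a role, the 10 genes most like Clstn2, the nearest coding genes beside Clstn2, and Lepr. Alternatives were other pseudocounts (0.5 and 5), filters (a mean of 50, or none), scalings, moderation, a replicate block, fits of 2 groups and leaving out each library. Fits of Clstn3 over genes with at least 10 reads in all, and the alternatives for Cbln2, Cdh2 and Pcdh18, were added after seeing the data. The fits were tested on simulated data. Python 3.11.15 was used with scipy 1.17.1, numpy 2.4.6, matplotlib 3.10.9 and pandas 2.3.3.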

Additional observations from a re-analysis of the deposited data

How the results depend on the processing

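Because the middle-aged and young values chose Clstn2, the sign of its difference between these groups was all but fixed and is no support. The Clstn2 difference kept its sign in each comparison under every alternative. It moved by more than 1 SD with a pseudocount of 0.5 (-6.89 for middle-aged minus young and 3.29 for salicylate-treated minus untreated middle-aged mice), with a pseudocount of 5 (-4.49, 1.38, and -3.11 for salicylate-treated minus young mice), and under stroma marker scaling (-5.58 for middle-aged minus young and -3.01 for salicylate-treated minus young mice). Without 1 library it ran from -6.49 to -5.95 for middle-aged minus young, from -3.70 to -3.34 for salicylate-treated minus young and from 2.42 to 2.96 for salicylate-treated minus untreated middle-aged mice.

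Clstn1 turned sign under stroma marker scaling (0.27 for middle-aged minus young, 0.13 for salicylate-treated minus young, -0.13 for salicylate-treated minus untreated middle-aged mice) and was called with DESeq2 for middle-aged minus young mice (-1.02). Without 1 library it ran from -1.36 to -0.72, from -0.53 to -0.30 and from 0.33 to 0.97 in these comparisons. The DESeq2 difference of Clstn3 over genes with at least 10 reads was -4.50 for salicylate-treated minus untreated middle-aged mice, and its other values moved by less than 1 SD. Without 1 library Clstn3 ran from 2.18 to 4.23 for middle-aged minus young, from -4.07 to -2.02 for salicylate-treated minus untreated middle-aged and, with a change of sign, from -0.26 to 0.78 for salicylate-treated minus young mice, where edgeR (-0.01) and DESeq2 (-0.03) also turned the sign. Clstn3 was left out of fits with a minimum mean, other than the fits of 2 groups alone that held the untreated middle-aged libraries. There it was tested and not called (limma, adjusted p = 0.354 against young and 0.669 against salicylate-treated middle-aged mice). The ratio of Clstn1 to Clstn3 passed its test under all 12 alternatives. As Clstn1 was above Clstn3 in every library, the fits without 1 library could only give the lowest p possible. These passes are thus no further support.

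Between middle-aged and young mice 452 genes were called (321 higher and 131 lower), against 234 with no filter, 68 with library total scaling (60 and 8), 3064 with stroma marker scaling (3030 and 34), 78 with no trend, 284 with the replicate block, 46 with the 2 groups alone and 1655 with DESeq2. Without antibody and mitochondrial genes in the total, 402 were higher and 60 lower. Without 1 library the count ran from 28 (without middle-aged replicate 2) to 2126 (without middle-aged replicate 1). Between salicylate-treated and young mice 31 genes were called, against 16 with no filter, 18 with library total scaling, 19 with stroma marker scaling, 19 with no trend, 429 with the 2 groups alone, 2 with edgeR and 298 with DESeq2, and 4 (without young replicate 2) to 379 (without middle-aged replicate 3) without 1 library. Between salicylate-treated and untreated middle-aged mice 0 were called, against 1 with no trend and 44 with DESeq2, and 0 without any 1 library. The causes were not tested.

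The kinesin-1 median also turned sign with a minimum mean of 50 (0.08). The call of Cdh2 was lost under 8 of 24 alternatives (adjusted p up to 0.461) and that of Pcdh18 under 17 of 24 (up to 0.175), with no change of sign. Whether replicate numbers pair the libraries was not settled. Deviations of libraries with the same number correlated by -0.012 to 0.123, and those of libraries with different numbers by -0.103 to 0.049. With the replicate block 284 genes were called between middle-aged and young, 26 between salicylate-treated and young and 0 between salicylate-treated and untreated middle-aged mice, and Clstn1 stayed uncalled (adjusted p = 0.110 for middle-aged against young mice).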
